A study of Mus musculus with 8 samples.

Results

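The misc_RNA class holds noncoding RNAs that Ensembl files under no narrower biotype, among them the structured 7SL, Y, 7SK and vault RNAs. All 563 transcripts with this biotype, out of 109463 transcripts of 45578 genes in the table, were taken, each from a gene of its own. Of them 549 carry only a Gm number and 14 have another name. The RNAs of RNase P and RNase MRP are filed as ribozymes in the table and are therefore no members. The members are 56 to 466 nucleotides long, with a median of 265. A read was counted on 128 of the 563 in at least 1 library, 37 had 10 or more reads over the 8 libraries, and 435 had none.

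The data are counts of ribosome-protected fragments from mouse brain at postnatal day 5, on a congenic FVB background. Both kinds of immunoprecipitate, 3 libraries with anti-SMN and 1 with IgG, were made from Smn+/-; SMN2tg/0 mice, phenotypically normal littermates of the SMA mice. The 2 libraries made with RiboLace, which captures active ribosomes, and the 2 made from polysomes came from Smn-/-; SMN2tg/0 mice, the Taiwanese model of severe spinal muscular atrophy (SMA) at an early symptomatic stage. All mice thus carried the human SMN2 transgene, and the 2 genotypes differ in mouse Smn. Replicates within a group are biological, per the labels, each from a mouse brain, and no label says whether the IgG library shares a brain with an SMN library. In the immunoprecipitates, nuclei and mitochondria were spun out and the lysate was digested with RNase I. Ribosomes were then pelleted and pulled down with anti-SMN or IgG. RiboLace started from a clarified lysate, whereas polysomal fractions of a sucrose gradient were pooled before digestion. SMN against IgG is therefore the one comparison within the immunoprecipitates, RiboLace against polysomes is within SMA brains, and in SMN against polysomes genotype and protocol both differ.

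7SL, 7SK, Y and vault RNAs and Terc work as structured RNAs and do not code for protein. 7SL is the scaffold of the signal recognition particle, which binds ribosomes that make secreted and membrane proteins and brings them to the endoplasmic reticulum. 7SK is a nuclear RNA that, with Larp7, Mepce and Hexim proteins, holds the transcription elongation kinase Cdk9 inactive. Y RNAs bind the Ro protein and take part in RNA quality control, vault RNA is part of the large vault particle of the cytoplasm, and Terc is the template RNA of telomerase.

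Depth limits what can be seen of such short RNAs. Levels are given as CPM, the reads of a gene scaled to a library of 1000000 reads, where each gene was represented by 1 transcript. Library totals counted this way were 190198 to 350023 in the SMN libraries, 322626 in IgG, 69852 and 58985 in RiboLace and 1851465 and 2548966 in polysomes. A floor of 3 reads equals 8.57 to 15.8 CPM in the SMN libraries, 9.30 CPM in IgG, 42.9 and 50.9 CPM in RiboLace and 1.62 and 1.18 CPM in polysomes. The tissue label was checked against the neuron markers Tubb3, Stmn2, Gap43, Snap25, Map2 and Dcx, which were read in each of the 8 libraries. Fewer cells of a type and less RNA per cell cannot be told apart in such bulk samples.

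Reads on misc_RNA genes were a small part of each library and by far the smallest in polysomes. They made up 0.610%, 0.750% and 0.903% of the reads in SMN replicates 1 to 3, and 0.859% in IgG (exact 95% binomial interval 0.828 to 0.892%). In RiboLace they made up 1.14% and 1.09%, against 0.0203% and 0.0215% in polysomes. The SMN libraries lay on both sides of the IgG library, and no RiboLace or SMN library came near the polysomes. The mean share was 1.11% ± 0.0372 in RiboLace and 0.0209% ± 0.00084 in polysomes (SD, n = 2 each), a ratio of 53.3. In SMN it was 0.754% ± 0.147 (SD, n = 3), 36.1 times that of polysomes. With so few libraries the exact two-sided permutation test gave p = 0.333 for RiboLace against polysomes and p = 0.2 for SMN against polysomes, the smallest p that each design allows. Intervals and floors given here and below cover counting error only, since reads are not independent molecules.

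**Figure D1:**
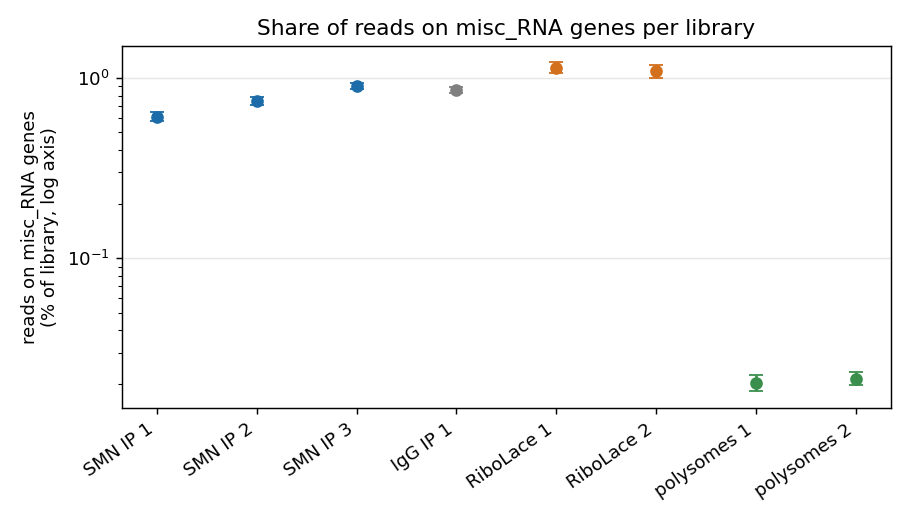
Share of reads on misc_RNA genes in each library, in percent on a log axis. Bars are exact 95% binomial intervals. The polysome libraries sit at 0.0203% and 0.0215%, while the other 6 libraries lie between 0.610% and 1.14%.

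A few genes held most of these reads. The 7SL genes Rn7s1, Rn7s2 and Rn7s6 took 56.0% of all misc_RNA reads, and the 12 genes with the highest mean CPM took 84.2%. The 91 genes with 1 to 9 reads shared 224 reads of 10937. The mix differed between preparations. 7SL made up 57.5% ± 4.91 of misc_RNA reads in SMN (SD, n = 3) and 49.2% in IgG. It made up 70.6% ± 0.83 in RiboLace and 43.2% ± 0.65 in polysomes (SD, n = 2 each). The Y RNAs Rny1 and Rny3 together made up 9.39% ± 3.11 in SMN, 9.56% in IgG, 8.40% ± 1.77 in RiboLace and 18.0% ± 2.46 in polysomes. RiboLace libraries were thus the richest in 7SL among misc_RNA reads and polysomes the richest in Y RNAs, with no overlap between those 2 groups in either.

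**Figure D2:**
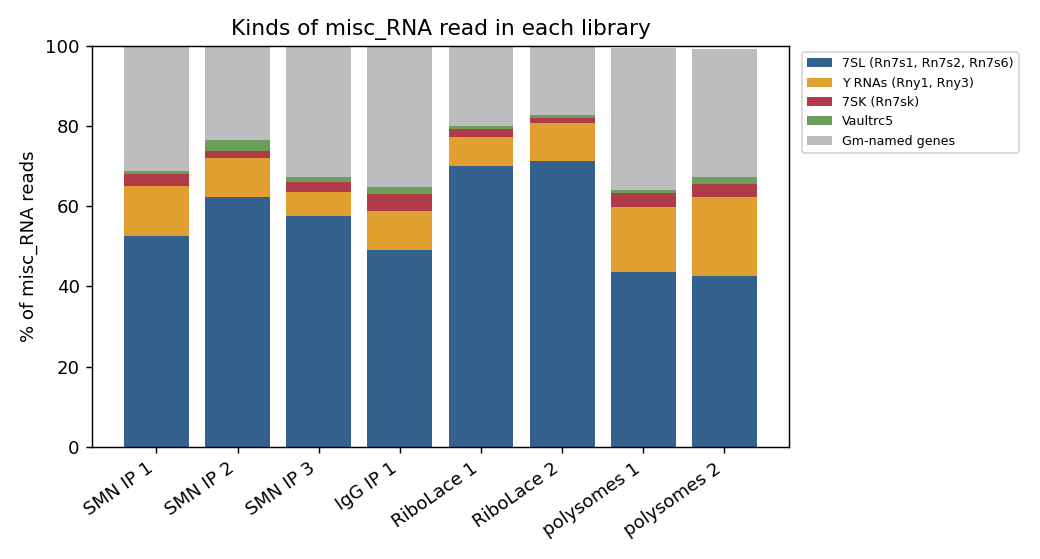
Kinds of RNA among the misc_RNA reads of each library, in percent. 7SL fills 70.0% and 71.2% of the 2 RiboLace bars and 43.6% and 42.7% of the 2 polysome bars. Terc and Mir1897, left out of the bars, make up the small remainder.

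IgG controls for what sticks to antibody and beads. No misc_RNA gene passed the test in the SMN immunoprecipitate against it. Of 24 genes tested, 0 were called higher and 0 lower, at an adjusted p under 0.05 (edgeR's quasi-likelihood test, with Benjamini-Hochberg adjustment over all 7312 genes). Over all genes 0.0% were called higher and 0.0137% lower. DESeq2 and limma-voom called 0 misc_RNA genes too. The 24 genes had a median log2 fold change of -0.26, where all genes had 0.06. That median was 0.01 with a minimum count of 50 and -0.88 without a filter. It was -0.68 without SMN replicate 2 and -0.45 without SMN replicate 3. At an unadjusted p under 0.05, 0 of the 24 were higher and 7 lower, where 136 of all 7312 genes were higher and 63 lower. The 7 became 1 with DESeq2, 6 with limma-voom and 1 of 13 tested with a minimum count of 50. They became 10 with scaling on protein-coding genes, 8 of 25 with transcripts as deposited and 11 of 106 without a filter. Over the 37 genes with 10 or more reads, the mean CPM was higher in SMN than in IgG for 9 and lower for 28. This split was not counted over all genes at the same cut. The SMN libraries did not overlap the IgG library for 12 of the 24 genes tested, a share that was not counted over all genes. IgG was the higher in each of the 12. With 1 IgG library, that value need only be the highest or lowest for this, so the count alone shows no difference. With 1 IgG library, assumed to vary as the SMN libraries do, the lack of calls does not show that the levels were equal.

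In RiboLace against polysomes, which asks what differs between captured active ribosomes and gradient polysomes of SMA brains, 15 of the 16 misc_RNA genes tested rose and 0 fell (edgeR quasi-likelihood test, adjusted p up to 0.00341). Over all 13367 genes tested, 5.6% were called higher and 4.42% lower. The 16 genes had a median log2 fold change of 5.77, where all genes had -0.33. Genes rarely read in polysomes pass the filter on low counts only if RiboLace is high, so 16 tested genes do not stand for all 563. Over the 37 genes with 10 or more reads, whichever library held them, the mean CPM was higher in RiboLace for 28 and lower for 5. With limma-voom 8 of the 16 were called, and with a library left out 9 to 11 were called. The blood markers Hba-a1, Hba-a2, Hbb-bs and Hbb-bt also rose, 4 of 4, and summed to 3608 and 4255 CPM in RiboLace, against 1702 and 2313 CPM in polysomes. Of the 6 neuron markers 3 rose in RiboLace (Tubb3, Stmn2 and Gap43) and 0 fell, with a summed level of 6798 and 7731 CPM, against 4884 and 5387 CPM in polysomes. Of 4 astrocyte markers 0 rose and 1, Aldh1l1, fell, with a summed level of 526 and 716 CPM in RiboLace, against 974 and 1079 CPM in polysomes. The part of these cell types in the result was not tested.

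In the SMN immunoprecipitate against polysomes, 23 of 23 misc_RNA genes tested rose (adjusted p up to 1.53e-04, edgeR quasi-likelihood test), where 21.5% of all 9119 genes were called higher and 15.7% lower. The 23 genes had a median log2 fold change of 6.36, where all genes had -0.08, and the same filter effect applies. Without the filter 37 were called higher. Of the 6 neuron markers 2, Tubb3 and Stmn2, rose as well in SMN against polysomes, and 0 fell. The summed levels of the 6 overlapped, at 5342 to 6309 CPM in SMN against 4884 and 5387 CPM in polysomes. No astrocyte or blood marker was called, nor were the oligodendrocyte lineage markers Olig1, Olig2, Pdgfra and Mbp. The part of these cell types in the result was not tested. With library totals in place of TMM scaling the median of all genes was -0.55 and that of the 23 was 5.89. The IgG library stood above the same polysomes in the same way. Of the 37 genes with 10 or more reads, 36 had a higher mean CPM in SMN than in polysomes, and 36 had a higher CPM in IgG than in polysomes. These comparisons share the polysome libraries. The 37 were chosen by reads summed over the 8 libraries, so genes read mostly in the immunoprecipitates entered through them. For none of the counts on the 37 genes was the share over all genes at the same cut taken. The exception in both comparisons with polysomes was Gm27406, of 182 nucleotides, named after its values were seen. It had 1, 0 and 0 reads in SMN, 2 in IgG, 1 and 0 in RiboLace, and 21 and 29 reads in polysomes, or 11.3 and 11.4 CPM. In RiboLace against polysomes it was tested and did not pass (edgeR, log2 fold change -0.39 with an SE of 1.39, adjusted p = 0.913).

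**Figure D3:**
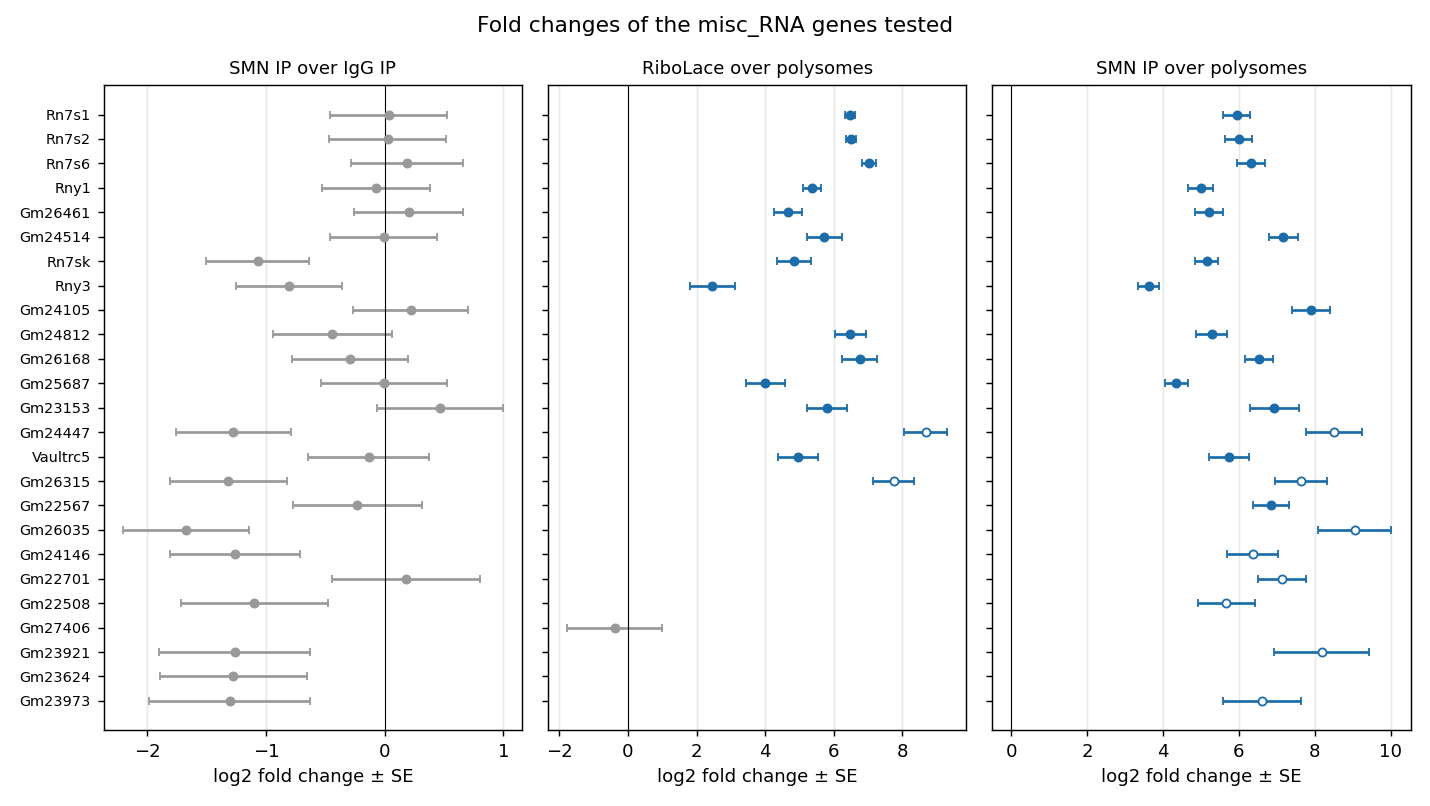
Log2 fold change with its standard error of each misc_RNA gene tested, in 3 comparisons on separate axes. Blue marks an adjusted p under 0.05, and open points rest on 3 or fewer reads in polysomes, so that their fitted size is loose. No gene is blue in SMN over IgG, 15 of 16 are in RiboLace over polysomes and 23 of 23 in SMN over polysomes.

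Per length, the 7SL genes Rn7s1 and Rn7s2 were the most abundant members in the immunoprecipitates and in RiboLace. Rn7s1 (ENSMUSG00000099021, 300 nucleotides) had 255, 343 and 739 reads in SMN replicates 1 to 3, or 1280.4, 1803 and 2111 CPM, against 552 reads and 1711 CPM in IgG. The IgG value lay within the range of the SMN libraries, with a log2 fold change of 0.03 and an SE of 0.49 (edgeR, adjusted p = 0.99996). RiboLace held 217 and 177 reads of Rn7s1, or 3107 and 3001 CPM, against 72 and 96 reads, or 38.9 and 37.7 CPM, in polysomes. This was a log2 fold change of 6.47 (SE 0.15), with an edgeR adjusted p too small to be told from 0. The adjusted p was 2.74e-12 by edgeR with the replicate number as a block and 0.0403 by limma-voom. With 2 libraries in each group, the size of such small p values in RiboLace against polysomes thus depends on the model. SMN over polysomes came to 5.94 (SE 0.36, adjusted p = 3.25e-09, edgeR). The mean CPM in SMN was 45.2 times and that in IgG 44.7 times the mean in polysomes.

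Rn7s2 (ENSMUSG00000099250), also of 300 nucleotides, followed Rn7s1 to within -2 to 8 reads in every library. It had 251, 339 and 736 reads in SMN, 550 in IgG, 214 and 172 in RiboLace, and 64 and 98 in polysomes. Both lie on chromosome 12 in the RefSeq annotation with 9 gene starts between them. Whether both rows hold the same reads was not tested. Both are nevertheless counted as separate genes in the counts, medians and shares given here. The 7SL percentages may thus count some reads more than once. Rn7s6 (ENSMUSG00000092746, 291 nucleotides) had 133, 208 and 343 reads in SMN and 262 in IgG, or 668, 1094 and 980 CPM against 812 CPM. In RiboLace it had 127 and 108 reads, against 28 and 40 in polysomes, or 1818 and 1831 CPM against 15.1 and 15.7 CPM. Its log2 fold change over polysomes was 7.03 in RiboLace (SE 0.19, adjusted p = 2.43e-280, edgeR) and 6.33 in SMN (SE 0.37, adjusted p = 2.70e-09, edgeR).

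**Figure D4:**
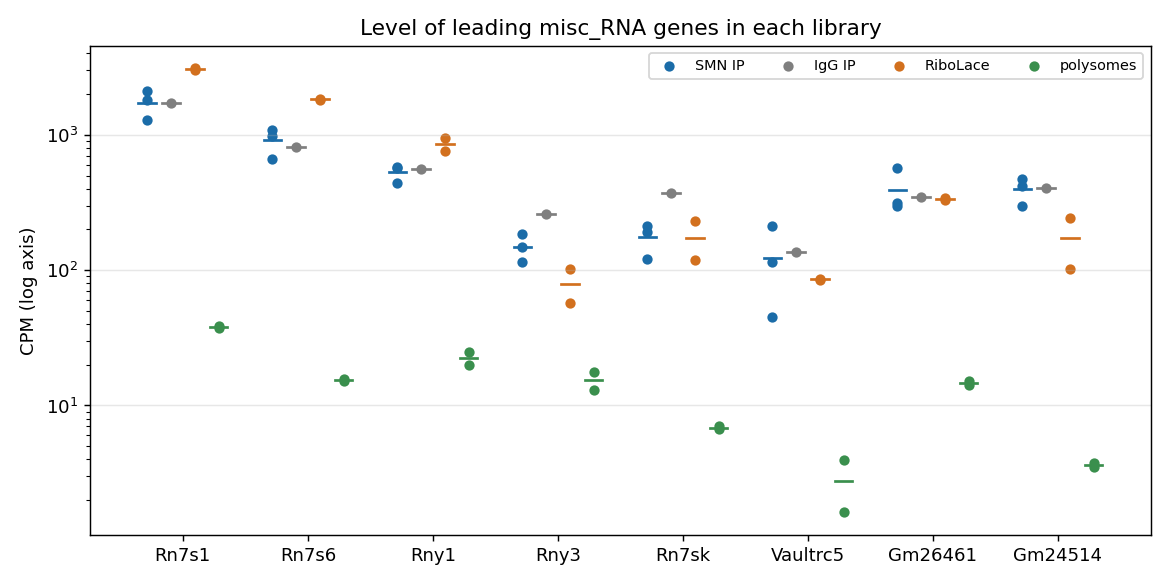
Level in CPM on a log axis of 8 leading misc_RNA genes, with 1 point per library and a line at each group mean. The polysome points lie below all others for each of the 8 genes, and the IgG point lies above the 3 SMN points for Rn7sk and Rny3.

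Rny1 and Rny3 are the Y RNA genes of the mouse, and they differed from each other in how far they rose over polysomes. Rny1 (ENSMUSG00000065701, 112 nucleotides) had 113, 110 and 154 reads in SMN and 181 in IgG, or 567, 578 and 440 CPM against 561 CPM. In RiboLace it had 53 and 56 reads, against 37 and 63 in polysomes, or 759 and 949 CPM against 20.0 and 24.7 CPM. It rose over polysomes on the log2 scale by 5.37 ± 0.25 (SE) in RiboLace (edgeR, adjusted p = 4.58e-96) and by 4.99 ± 0.32 in SMN (edgeR, adjusted p = 5.61e-09).

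Rny3 (ENSMUSG00000064945, 102 nucleotides) had 37, 28 and 40 reads in SMN, or 186, 147 and 114 CPM, against 84 reads and 260 CPM in IgG (exact 95% Poisson interval 208 to 322 CPM). All 3 SMN libraries lay below IgG, without a call (edgeR, log2 fold change -0.81 with an SE of 0.45, adjusted p = 0.99996). In RiboLace it had 4 and 6 reads, against 24 and 45 in polysomes, or 57.3 and 102 CPM against 13.0 and 17.7 CPM. Its log2 fold change in RiboLace over polysomes was 2.46 (SE 0.66, adjusted p = 0.00341, edgeR), the smallest among the called genes. That call rests on 10 RiboLace reads and was lost without RiboLace replicate 1 (adjusted p = 0.0505), without RiboLace replicate 2 (adjusted p = 0.277) and with limma-voom (adjusted p = 0.112). In SMN over polysomes it was 3.62 (SE 0.28, adjusted p = 5.60e-08, edgeR), the smallest of the 23 as well.

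Rny1 and Rny3 lie near each other on chromosome 6 in the RefSeq annotation, with 1 gene start between them, yet their ratio differed between preparations. This ratio is taken within a library and does not depend on scaling. Rny3 made up 24.7%, 20.3% and 20.6% of the Rny1 and Rny3 reads in SMN replicates 1 to 3, and 31.7% in IgG (exact 95% binomial interval 26.1 to 37.7%). It made up 7.02% (interval 1.95 to 17.0%) and 9.68% (3.63 to 19.9%) in RiboLace, against 39.3% (27.1 to 52.7%) and 41.7% (32.3 to 51.5%) in polysomes. The intervals of the RiboLace and polysome libraries did not overlap. Over libraries, the exact two-sided permutation test gave p = 0.333 for RiboLace against polysomes and p = 0.2 for SMN against polysomes, again the smallest possible. Per length, Rny1 and Rny3 were the leading members in polysomes, at 199.6 and 150.1 CPM per kilobase, followed by Rn7s1 at 128. In RiboLace Rn7s1 led at 10179 CPM per kilobase, Rny1 had 7626 and Rny3 had 779, the eighth place.

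**Figure D5:**
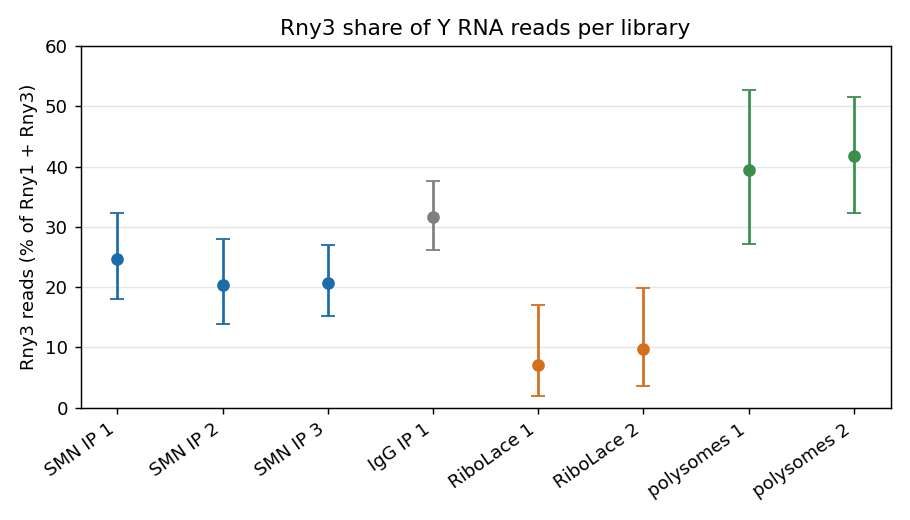
Rny3 reads as a percentage of Rny1 and Rny3 reads in each library, with exact 95% binomial intervals. RiboLace lies at 7.02% and 9.68% and polysomes at 39.3% and 41.7%, with the SMN libraries and IgG between 20.3% and 31.7%.

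7SK was read at a moderate level. Rn7sk (ENSMUSG00000065037, 331 nucleotides, chromosome 9 in the RefSeq annotation) had 38, 23 and 74 reads in SMN, or 191, 121 and 211 CPM, against 120 reads and 372 CPM in IgG (exact 95% Poisson interval 308 to 445 CPM). Each SMN library lay below IgG. The log2 fold change was -1.07 (SE 0.43, unadjusted p = 0.0132, adjusted p = 0.99996, edgeR), ranging from -1.25 to -0.91 over the alternatives without a call in any. In RiboLace Rn7sk had 16 and 7 reads, against 13 and 17 in polysomes, or 229 and 119 CPM against 7.02 and 6.67 CPM. It rose by 4.84 on the log2 scale (edgeR, SE 0.50, adjusted p = 5.62e-20), a call lost with limma-voom (adjusted p = 0.0573). Without RiboLace replicate 1 the rise was 4.17 (adjusted p = 0.00186, edgeR). In SMN over polysomes the log2 fold change was 5.15 (SE 0.29, adjusted p = 2.39e-09, edgeR). Set against Rn7s1 within a library, there were 14.9, 6.71 and 10.0 Rn7sk reads per 100 Rn7s1 reads in SMN, and 21.7 in IgG. There were 7.37 and 3.95 in RiboLace, against 18.1 and 17.7 in polysomes.

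A list of nuclear long noncoding RNAs was set beside 7SK, which is nuclear too. The list Malat1, Neat1, Meg3, Rian, Miat, Kcnq1ot1 and Xist summed to 1146 to 1577 CPM in SMN, against 2749 CPM in IgG. None of its 6 tested genes passed against IgG, and the median log2 fold change was -1.13. Neat1, too low to be tested, had 15.1, 15.8 and 17.1 CPM in SMN, against 9.30 CPM in IgG. The list summed to 687 and 1017 CPM in RiboLace, against 160 and 165 CPM in polysomes, with 4 of 5 tested genes called higher (median log2 fold change 3.14) and Rian not called (adjusted p = 0.377, edgeR). Malat1, a nuclear speckle RNA, had 944, 573 and 937 CPM in SMN, against 1562 CPM in IgG, and 344 and 543 CPM in RiboLace, against 50.8 and 58.1 CPM in polysomes. In SMN over polysomes 4 of 4 tested genes of the list rose (median 3.78). Whether nuclear RNA has a part in the 7SK values was not tested.

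Vault RNA varied widely between the SMN replicates. Vaultrc5 (ENSMUSG00000065145, 143 nucleotides) had 9, 40 and 40 reads in SMN, or 45.2, 210.3 and 114 CPM, against 44 reads and 136 CPM in IgG, which falls within the SMN range. In RiboLace it had 6 and 5 reads, against 3 and 10 in polysomes, or 85.9 and 84.8 CPM against 1.62 and 3.92 CPM. The log2 fold change over polysomes was 4.96 in RiboLace (SE 0.60, adjusted p = 1.46e-10, edgeR, and adjusted p = 0.0671 with limma-voom) and 5.74 in SMN (SE 0.53, adjusted p = 4.11e-07, edgeR), or 6.53 without polysome replicate 2. Terc (ENSMUSG00000064796, 423 nucleotides) had 4, 5 and 8 reads in SMN, 3 in IgG, none in RiboLace and 2 and 0 in polysomes, too few to be tested. Mir1897, a row of 272 nucleotides under the name of a microRNA gene, had 1 read in SMN and 4 in polysomes. Of the other named rows, 5 had no read.

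The Gm-named genes held 30.04% of the misc_RNA reads, on 119 genes. Neither the table nor the RefSeq names used here say which RNA each one is. Gm26461 (290 nucleotides) had 62, 57 and 200 reads in SMN, or 311, 299.7 and 571 CPM, against 112 reads and 347 CPM in IgG. In RiboLace it had 23 and 20 reads, against 28 and 36 in polysomes. This was a rise of 4.67 on the log2 scale (edgeR, SE 0.40, adjusted p = 2.01e-29). Gm24514 (285 nucleotides) had 59, 79 and 166 reads in SMN and 130 in IgG, and 17 and 6 in RiboLace, against 7 and 9 in polysomes. Its log2 fold change over polysomes was 7.17 in SMN (SE 0.38, adjusted p = 1.71e-09, edgeR) and 5.73 in RiboLace (SE 0.51), where the call was lost with limma-voom (adjusted p = 0.0651) and the value was 4.84 without RiboLace replicate 1. Gm24812 (284 nucleotides) had 329 and 305 CPM in RiboLace, against 3.24 and 4.32 CPM in polysomes. It had 55.2, 152 and 129 CPM in SMN, against 155 CPM in IgG. Gm26168 (112 nucleotides) rose over polysomes by a log2 fold change of 6.75 in RiboLace (SE 0.52) and 6.52 in SMN (SE 0.36). Gm25687 (241 nucleotides) had the smallest such rise among the Gm-named genes called in both, at 4.01 in RiboLace (SE 0.57) and 4.35 in SMN (SE 0.30). Over polysomes, Gm24105 and Gm22567 were tested in SMN alone, with log2 fold changes of 7.89 and 6.85 (SE 0.50 and 0.48).

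For the next 3 Gm-named genes the IgG library lay above each SMN library, without a call in any. They are among the 12 of 24 tested genes where SMN and IgG did not overlap, so this is not particular to them. Gm24447 (338 nucleotides) had 20, 5 and 46 reads in SMN, or 100.4, 26.3 and 131 CPM, against 70 reads and 217 CPM in IgG. It had 9 and 7 reads in RiboLace, against 0 and 1 in polysomes. That single polysome read gives a pooled ratio of 546 for RiboLace over polysomes with an exact 95% interval of 84.9 to 22917. Gm26315 (321 nucleotides), chosen after its values were seen, had 17, 5 and 42 reads in SMN, 65 in IgG, 8 and 6 in RiboLace, and 0 and 2 in polysomes, close to Gm24447 in each library. Whether both rows hold the same reads was not tested. Gm26035, also chosen afterwards, had 13, 2 and 22 reads in SMN against 50 in IgG. Its log2 fold change of -1.68 (edgeR, SE 0.53, adjusted p = 0.639) was the lowest of the 24 genes. It had no polysome read. With a floor of 3 reads set for both polysome libraries together, its pooled ratio to polysomes was 73.4 in SMN and 68.3 in RiboLace. These ratios leave out the counting error of the SMN and RiboLace reads, of which RiboLace had only 4 and 2. In RiboLace against polysomes Gm26035 was too low to be tested. Of the 37 genes with 10 or more reads, 7 had no polysome read.

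The genes for the protein partners of these RNAs did not show such a rise. Among them Ccnt2, Pop5, Rpp21 and Rpp40 are represented by transcripts not filed as protein-coding. Of 7 genes for 7SK particle proteins, 0 rose and 1 fell in RiboLace against polysomes, and 0 rose and 2 fell of 4 tested in SMN against polysomes. Over all genes, 4.42% fell in RiboLace and 15.7% fell in SMN, and with library totals as the scale 3671 of 9119 genes fell in SMN. The gene called in RiboLace was Hexim1, with 2 and 2 reads, against 234 and 343 in polysomes. It fell by 1.92 on the log2 scale (edgeR, SE 0.57, adjusted p = 0.0112). Of the signal recognition particle proteins and receptor subunits, 0 of 9 tested were called in RiboLace and 0 of 8 in SMN, each against polysomes. Srp54b, which binds the signal peptide, had 14, 10 and 30 reads in SMN, 21 in IgG, 7 and 5 in RiboLace, and 263 and 424 in polysomes. For Trove2, the Ro protein, and Ssb, the La protein, 0 of 2 were called in RiboLace and 2 of 2 fell in SMN, by 1.00 and 0.78 on the log2 scale against polysomes. Of 11 RNase P and MRP proteins, 0 of 10 tested were called in RiboLace, and 0 rose and 3 fell of 4 tested in SMN. The vault proteins Mvp, Parp4 and Tep1 had no RiboLace read. Against IgG, 0 of the 12 partner genes tested in the SMN immunoprecipitate were called.

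Other classes of small structured RNA were low in polysomes too. Small nuclear RNAs made up 10.5% ± 0.56 of the reads in SMN (SD, n = 3), 13.1% in IgG, 7.47% ± 0.94 in RiboLace and 0.356% ± 0.0586 in polysomes (SD, n = 2 each). Small nucleolar and Cajal body RNAs made up 3.80% ± 0.51 in SMN, 5.22% in IgG, 2.24% ± 0.093 in RiboLace and 0.204% ± 0.0034 in polysomes. In RiboLace against polysomes, 225 of 256 small nuclear RNA genes and 117 of 152 small nucleolar or Cajal body RNA genes were called higher, with median log2 fold changes of 3.37 and 4.48, beside 5.77 for misc_RNA. In SMN against polysomes the medians were 5.41 and 4.91, beside 6.36. The filter chose the genes in each class, so these medians are set side by side without a test. Rmrp, the RNA of RNase MRP, had 567, 1293 and 611 CPM in SMN and 697 CPM in IgG, and 2706 and 3052 CPM in RiboLace, against 54.0 and 46.3 CPM in polysomes. Rpph1, the RNA of RNase P, had 211, 1009 and 326 CPM in SMN and 273 CPM in IgG, and 1704 and 2102 CPM in RiboLace, against 42.1 and 46.3 CPM in polysomes.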

How the data were processed

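Per the file headers, the authors deposited raw read counts and lengths of Ensembl transcripts for 8 libraries. The submitters' processing notes name Trimmomatic 0.36, SAMtools and Bowtie2 2.2.6 and the build GRCm38.p4, while the treatment of multi-mapping reads was not stated in any source at hand. Each gene was represented by its transcript with the highest library-scaled total, of any biotype, which left out 2 read-free members, Rmst-201 and Sox2ot-201, from the tests. In R 4.3.3, edgeR 4.0.16 kept genes by filterByExpr (minimum count 10), scaled libraries by TMM and ran its robust, two-sided quasi-likelihood test on each pair of groups. Benjamini-Hochberg adjustment covered every gene tested, with a threshold of 0.05. The SE of a log2 fold change was derived from its F statistic. CPM are relative to the total over 1 transcript per gene without TMM factors. Alternatives were DESeq2 1.42.0, limma-voom (limma 3.58.1), other scalings and filters, transcripts as deposited, the replicate number as a block and each library left out. Named genes were those with a family name and a read, the 12 with the highest mean CPM and up to 10 called per direction and comparison. Members, lists and tests were chosen with earlier results of these data known. The fits were tested on simulated counts with known changes. Most of these changes were missed in SMN against IgG and in RiboLace against polysomes, and more were found in SMN against polysomes. Python 3.11.15 with scipy 1.17.1 gave exact intervals. Of 563 symbols, 17 matched the RefSeq table (GRCm38.p6), used for names and neighbours only.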

Additional observations from a re-analysis of the deposited data

How the results depend on the processing

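Of 15 misc_RNA genes called higher in RiboLace against polysomes, 8 were called with limma-voom and 24 without a filter on low counts. With a library left out 9 to 11 were called, the low end without either polysome library, where 9 of 9 tested genes were called and fewer genes passed the filter. Of 23 called higher in SMN against polysomes, 37 were called without the filter and 8 of 8 tested with a minimum count of 50. The remaining counts kept within 1.5 times, and no named gene's call changed direction under the alternatives run. The share of reads on misc_RNA genes depends on what is counted. Relative to all transcripts as deposited it was 0.406% in SMN, 0.438% in IgG, 0.628% in RiboLace and 0.0109% in polysomes. Relative to protein-coding reads it was 1.13%, 1.39%, 1.695% and 0.0239% in the same groups. Relative to the totals over 1 transcript per gene, as in the main results, it was 0.581%, 0.688%, 0.809% and 0.0171% without Rn7s1. With 7SL counted once through Rn7s1, an alternative chosen after seeing the data, it was 0.491%, 0.608%, 0.633% and 0.0157%. Over all genes the calls in SMN against polysomes were 1958 higher and 1428 lower with TMM scaling, 1302 and 3671 with library totals, and 2451 and 707 with scaling on coding genes. In RiboLace against polysomes they were 749 and 591, 724 and 942, and 826 and 240.

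Replicate numbers recur across groups, but no label ties them to a shared animal or day. The deviations of same-numbered libraries from their group means had a correlation of 0.016 in RiboLace and polysomes, and of 0.021 and 0.11 in SMN and polysomes. SMN replicate 3 and polysome replicate 1, of unlike number, had a higher one, 0.16. With the replicate number as a block, 14 genes were called higher in RiboLace and 23 in SMN, each against polysomes, and Rny3 was not called in RiboLace (adjusted p = 0.0604, edgeR). No paired analysis was possible for SMN against IgG because they share 1 number. Depth limits RiboLace most, where 3 reads equal up to 50.9 CPM.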
